A study of Mus musculus with 21 samples.

Results

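The genes described here are 9 components of the Notch pathway: the receptors Notch1, Notch2 and Notch3, the ligands Jag1, Jag2 and Dll1, the DNA-binding effector Rbpj and the targets Hes1 and Hey1. They were chosen by gene symbol from 49315 gene identifiers, and all 9 were found once. No rule on their values was used, but earlier results of these data were known when they were chosen. The material was epidermal sheets of mouse skin, whose total RNA, depleted of ribosomal RNA, was sequenced, and each library was deposited as counts per gene. The series asked what the transcription factors AP-2a and AP-2b, encoded by Tfap2a and Tfap2b, do in adult epidermis. The comparison set 3 libraries from mice aged 6 months with the genotype K14CreTfap2afl/flTfap2bfl/fl, called the double knockout, against 3 strain-specific control libraries of the same age, labelled WT. In the double knockout both genes carry floxed alleles, and Cre recombinase is driven by the promoter of the keratin gene Krt14, which is active in basal keratinocytes. Deletion is thus directed to basal keratinocytes and their descendants, while an epidermal sheet can also hold cells of other origin. A further 2 libraries, labelled K14CreTfap2bfl/fl and taken at 3 weeks, held counts and are described without a test. In the other 13 of the 21 files, all from 3 weeks, every gene was listed at 0. The labels do not say that replicates came from separate animals, so p-values measure the spread between these libraries, which may in part be technical.

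The 8 libraries held 11318181 to 17746284 counts. Neither targeted gene was lost at the level of the whole gene: Tfap2a ranged from 140.3 to 210.1 CPM (counts per 1000000 library counts) in controls and from 213 to 309 CPM in double knockouts, and Tfap2b from 57.3 to 86.6 and from 53.8 to 57.2 CPM. Neither passed the test used below (edgeR adjusted p 0.118 and 0.111). A count over the whole gene includes exons outside a deleted part, so this does not test recombination. "Double knockout" therefore names a label throughout, and directions refer to libraries carrying that label. Control replicates 1 and 2 held 1.61 and 3.19 counts per exonic kb in odorant and vomeronasal receptor genes, which skin is not known to use, while control replicate 3 held 0.147 and the double knockout 0.106 to 0.195. Across the genes tested below, control replicate 3 had rank correlations of 0.944 to 0.951 with the double knockout libraries. With control replicates 1 and 2 it had 0.942 and 0.947. Those 2 controls were at 0.955 with each other and at 0.903 to 0.917 with the double knockout. The controls were thus not uniform over all genes, which bears on every group mean and SD. The cause was not tested. The defining keratinocyte markers were present in all libraries. The summed basal keratinocyte markers were at 8224 to 10485 CPM in the controls and 15753 to 18754 CPM in the double knockout, and the summed suprabasal markers at 11782 to 14527 and 12425 to 16346 CPM.

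Notch signalling passes between touching cells. A Jagged or Delta ligand on one cell binds a Notch receptor on its neighbour, the receptor is cut by an ADAM protease and then by gamma-secretase, and the freed intracellular domain joins RBPJ in the nucleus and switches on genes such as those of the Hes and Hey families of transcriptional repressors. In epidermis the pathway is known for moving keratinocytes from the basal into the suprabasal layers, and Hes1 is known as a target that holds suprabasal cells in the spinous state.

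Among the 9 genes, Hes1 alone differed past the threshold between the groups at 6 months, and it was lower in the double knockout. It was at 123 ± 19.5 CPM in the controls and 53.5 ± 8.18 CPM in the double knockout (SD, n = 3 each). The fitted ratio, which uses weighted library factors (TMM) that these CPM do not, was 0.413. No receptor passed the threshold, and Jag2 and Dll1 were higher in all 3 double knockout libraries than in any control without passing the threshold. Such a gap between the groups, in either direction, was found for 3 of the 9 genes, Hes1 included, and for 38.7% of all genes tested. The test was edgeR's quasi-likelihood test with an adjusted p (Benjamini-Hochberg over all 17755 genes tested) under 0.05, which 14.9% of the genes passed, 6.26% as higher and 8.59% as lower. All 9 genes were tested. One call among 9 is near that background share, so it is a result about Hes1 and not about the set. The median log2 fold change over the 9 genes was -0.02, against -0.04 over all genes tested.

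**Figure D1:**
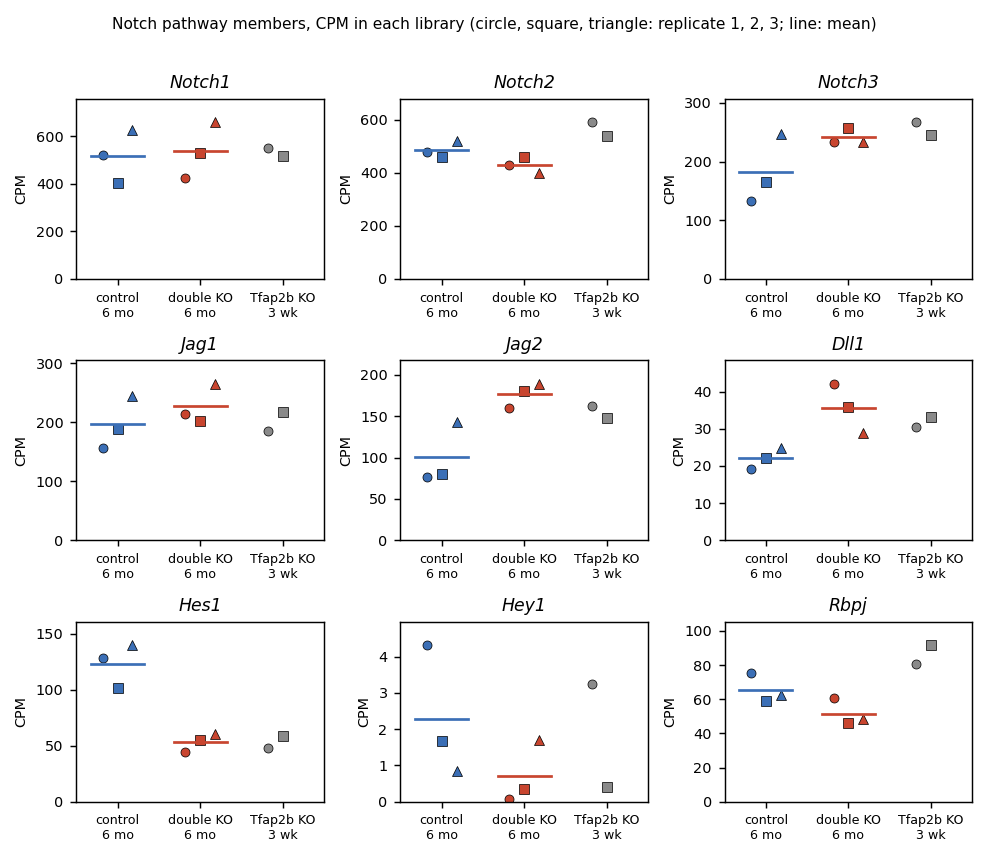
CPM (vertical axes, each starting at 0) of the 9 Notch genes in every library, by group, with circles, squares and triangles for replicates 1, 2 and 3 and a line at the mean of groups of 3. Hes1 shows controls between 102 and 139.9 CPM and double knockout libraries between 44.6 and 60.7 CPM, while the points of Notch1, Notch2, Notch3 and Jag1 overlap between the groups at 6 months.

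Promoter windows, 250 bases before to 50 after a start site, were taken from RefSeq (GRCm38.p6) and matched 7 of the 9 genes in 9 windows; Hes1 and Hey1 had no entry. They were searched for TGGGAA, the core that RBPJ reads, on both strands, and for GCCNNNGGC, a core that AP-2 factors read, which is its own reverse complement. The RBPJ core was in 2 of the 9 windows, both of Rbpj itself, against 25.6% of all 32851 windows. Those 2 windows overlap and share 1 match. The AP-2 core was in 1 of the 9 windows, that of Jag2, against 16.6% of all windows. The matches are shown because AP-2 factors, which the genotype labels name, and the effector of the pathway read these letters. Each line gives 30 bases, 5′ to 3′ on the strand of the gene, with the match in capitals:
Jag2, AP-2 core, chr12:112929489-112929518, minus strand: cggcggcgggGCCGCGGGCggggtcgaggc
Rbpj, RBPJ core, chr5:53590185-53590214, plus strand: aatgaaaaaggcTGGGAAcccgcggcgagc
Rbpj, RBPJ core on the opposite strand, chr5:53590269-53590298, plus strand: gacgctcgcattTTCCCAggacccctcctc
The Jag2 match began 13 bases before the start site and those of Rbpj 149 and 65 bases before one of its starts. A match says nothing of binding, and the windows leave out enhancers and more distant sequence.

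Of the receptors, Notch1 (ENSMUSG00000026923, chromosome 2, 26457903 to 26516663, minus strand, GRCm38), the main receptor of the differentiating epidermis, was at 523, 403 and 628 CPM in control replicates 1 to 3. It was at 424, 529.7 and 659 CPM in the double knockout, so the groups covered almost the same range. Its fitted log2 fold change came to -0.02 (0.20 SE), with 0.963 as the edgeR adjusted p, a sign opposite to that of the plain means of 518 and 538 CPM. The sign depended on the scaling: with total counts in place of the weighted library factors (TMM) the log2 fold change was 0.044, and it was 0.22 without control replicate 3. No direction can be given for Notch1.

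Notch2 (ENSMUSG00000027878, chromosome 3, 98013527 to 98150361, plus strand), a paralog also found in keratinocytes, was at 480.01, 458 and 518 CPM in the controls. The double knockout libraries held 431, 459 and 399 CPM, and the highest of them lay just above the lowest control. The fitted log2 fold change came to -0.25 (0.12 SE), with 0.188 as the edgeR adjusted p. Notch3 (ENSMUSG00000038146, chromosome 17, 32120820 to 32166880, minus strand), known from suprabasal keratinocytes and from the mural cells of vessels, was at 133, 165 and 248 CPM in the controls. It was at 233, 256 and 234 CPM in the double knockout, which puts control replicate 3 inside the other group and the other controls below it. The fitted log2 fold change of Notch3 came to 0.33 (0.20 SE), with 0.278 as the edgeR adjusted p. Without control replicate 3 it was 0.70 and past the threshold (adjusted p 0.00595), and with control replicate 3 as the lone control it was -0.094. The markers of pericytes and smooth muscle, which also express Notch3, summed to 36.5 to 45.6 CPM in the controls and 23.4 to 37.02 CPM in the double knockout, and none of the 5 tested passed the threshold. Their part in the Notch3 values was not tested. The antisense gene Gm17276 overlaps Notch3, with counts equal to 1.03% to 2.18% of those of Notch3 at 6 months, and the genes Gm42819 and Gm42820 lie within Notch2 on its strand, with 3.42% to 7.30% of its counts.

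Of the ligands, Jag1 (ENSMUSG00000027276, chromosome 2, 137081456 to 137116644, minus strand) was at 156, 189 and 245 CPM in the controls. The double knockout held 215, 202 and 265 CPM, and control replicate 3 again lay among them. Its fitted log2 fold change came to 0.14 (0.18 SE), with 0.632 as the edgeR adjusted p. Jag2 (ENSMUSG00000002799, chromosome 12, 112908590 to 112929495, minus strand), a ligand known from the basal layer, was at 77.0, 80.2 and 143 CPM in the controls. All 3 double knockout libraries were higher, at 160.05, 181 and 189 CPM. The log2 fold change was 0.75 (SE 0.22), at an edgeR adjusted p of 0.0531.

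Jag2 lay close enough to the threshold that the choice of test moved it across: it passed in 7 of 16 alternatives, all as higher. Leaving out control replicate 3 moved it most of the single libraries: without it the log2 fold change was 1.17 (edgeR adjusted p 0.00151), and with it as the lone control 0.25 (adjusted p 0.445). Basal keratinocyte markers were also higher at 6 months: 5 of the 7 tested passed the threshold and none was lower, with the summed levels given above. Of all genes tested, 6.26% were called higher. Proliferation markers were higher too, 7 of 7 past the threshold. In the libraries at 3 weeks, Jag2 lay above every control at 6 months, while the summed basal markers lay within the range of those controls. The part of the basal and proliferation markers in the Jag2 values was not tested. In bulk RNA more cells of a type and more RNA per cell cannot be told apart, nor can fewer and less.

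Dll1 (ENSMUSG00000014773, chromosome 17, 15367354 to 15376872, minus strand), a Delta ligand known from clusters of basal cells, was the least abundant of the 3 ligands per exonic length. It was at 19.2, 22.2 and 24.9 CPM in the controls against 42.1, 35.7 and 28.7 CPM in the double knockout, so the groups did not overlap. The fitted log2 fold change came to 0.60 (0.19 SE), with 0.0582 as the edgeR adjusted p. It was past the threshold in 4 of 16 alternatives, among them the fit without control replicate 3 (0.78, edgeR adjusted p 0.0169), and with that library as the lone control it was 0.45 (adjusted p 0.364). The noncoding gene A930024N18Rik overlaps Dll1 on the opposite strand, with counts equal to 3.98% to 13.9% of those of Dll1 at 6 months. The use of strand in counting is not given in the sources used here, so the reads of Dll1 and A930024N18Rik cannot be told apart. The groups did not overlap for 3 of the 9 members (Jag2, Dll1 and Hes1), where 38.7% of all genes tested showed such a gap.

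Rbpj (ENSMUSG00000039191, chromosome 5, 53466152 to 53657362, plus strand), which encodes the DNA-binding protein that all 3 receptors signal through, was at 75.1, 58.8 and 62.6 CPM in the controls. The double knockout held 60.5, 45.8 and 48.5 CPM, and its replicate 1 was above the lowest control. The fitted log2 fold change came to -0.42 (0.17 SE), with 0.112 as the edgeR adjusted p, and no alternative put it past the threshold. The annotation lists the processed pseudogenes Rbpj-ps1 and Rbpj-ps3, which can share reads with Rbpj, so its value is uncertain.

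Hes1 (ENSMUSG00000022528, chromosome 16, 30064384 to 30067796, plus strand), a basic helix-loop-helix repressor and a direct Notch target, was at 128, 102 and 139.9 CPM in control replicates 1 to 3. It was at 44.6, 55.02 and 60.7 CPM in the double knockout, on 616 to 2149 counts per library. Every double knockout library was far below the lowest control, and control replicate 3, which lay with the double knockout for Notch3 and Jag1, held the most Hes1 of all libraries. The fitted log2 fold change came to -1.28 (0.17 SE), with 0.00242 as the edgeR adjusted p. The fall passed the threshold in all 16 alternatives, between -1.44 with control replicate 3 as the lone control and -1.10 without that library. The receptor-gene background described above came to 3.28 and 6.50 of the 1544 and 1152 Hes1 counts in control replicates 1 and 2, and the log2 fold change with it subtracted was -1.34.

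Hey1 (ENSMUSG00000040289, chromosome 3, 8663359 to 8667256, minus strand), the related target, was the least abundant of the 9 genes per exonic length in all 8 libraries. It had 52, 19 and 13 counts in the controls and 1, 5 and 30 counts in the double knockout, or 4.32, 1.68 and 0.846 against 0.0724, 0.341 and 1.69 CPM. The groups overlapped, and the log2 fold change of -1.56 had an SE of 0.98 (edgeR adjusted p 0.253). In control replicate 2 the background amounted to 10.4 of the 19 counts. Single libraries moved the value: it was -2.79 without double knockout replicate 3 (edgeR adjusted p 0.0935), -0.76 without control replicate 1 and -0.24 with control replicate 3 as the lone control. It was not tested whether Hes1 and Hey1 changed unequally.

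**Figure D2:**
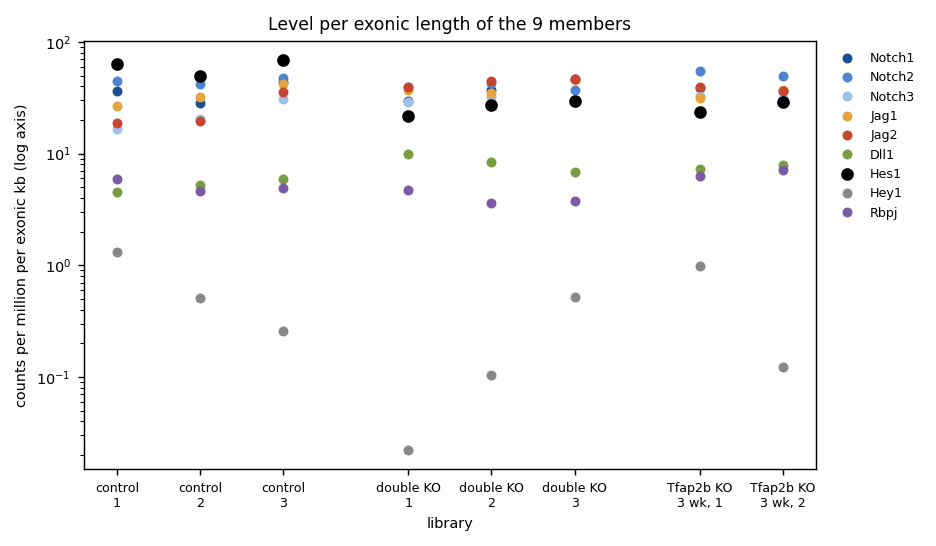
Level of each of the 9 genes per exonic length (CPM per exonic kb, log axis) in the 8 libraries, 1 colour per gene, with Hes1 as large black points. Hes1 is the topmost point in the 3 controls, at 49.97 to 68.7, and lies at 21.9 to 29.8 in the double knockout, below Jag1, Jag2, Notch1 and Notch2 in each of those libraries.

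Levels can be compared between genes only per exonic length, as CPM per exonic kb. On that scale the controls ran from Hes1 at 60.5 ± 9.59 through Notch2 at 45.01 ± 2.81, Notch1 at 36.4 ± 7.92, Jag1 at 33.8 ± 7.69, Jag2 at 24.7 ± 9.21 and Notch3 at 22.6 ± 7.33 (SD, n = 3) down to Dll1 at 5.23 ± 0.674, Rbpj at 5.13 ± 0.670 and Hey1 at 0.699 ± 0.555. Hes1 lay above every library of the next gene, whereas the 5 genes from Notch2 to Notch3 each overlapped their neighbours in that order, as did Dll1 and Rbpj. In the double knockout the order began with Jag2 at 43.5 ± 3.67 and Notch2 at 39.8 ± 2.79, followed by Jag1 at 38.997 ± 5.75, Notch1 at 37.8 ± 8.25, Notch3 at 29.98 ± 1.64 and Hes1 at 26.2 ± 4.02 (SD, n = 3). Those 6 genes also overlapped from one neighbour to the next. Below them came Dll1 at 8.42 ± 1.58, Rbpj at 4.05 ± 0.616 and Hey1 at 0.215 ± 0.266. Within single libraries, which needs no scaling between libraries, Hes1 ranked 1 of 9 in each control and 6, 6 and 5 in double knockout replicates 1 to 3, and Jag2 ranked 5, 6 and 5 in the controls and 2, 1 and 1 in the double knockout.

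Ratios taken within a library were chosen after the values were seen and are given with no test. The ratio of Hes1 to the 3 receptors summed, per exonic length, was 0.643, 0.547 and 0.559 in the controls and 0.222, 0.242 and 0.265 in the double knockout. The ratio of Jag2 to Jag1 was 0.709, 0.609 and 0.841 in the controls and 1.07, 1.29 and 1.02 in the double knockout, so Jag2 was below Jag1 in every control and above it in every double knockout library. The ratio of Notch3 to Notch2 was 0.372, 0.482 and 0.641 against 0.726, 0.749 and 0.787. That of Notch1 to Notch2 overlapped between the groups, at 0.825, 0.666 and 0.919 against 0.747, 0.874 and 1.25. Of the summed receptor level, Notch2 held 39.1% to 46.5% in the controls and 32.9% to 40.4% in the double knockout.

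Another 62 genes of the pathway were listed by role, and 52 of them were tested. Past the threshold were 12, with 7 higher and 5 lower in the double knockout, and the median log2 fold change was -0.04. With control replicate 3 as the lone control, 2 of the 12 (Dlk2 and Rfng) stayed past the threshold. The ratio of 12 to 52 is above the 14.9% of all genes, but these genes were listed with earlier results of the data known, and the difference was not tested.

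**Figure D3:**
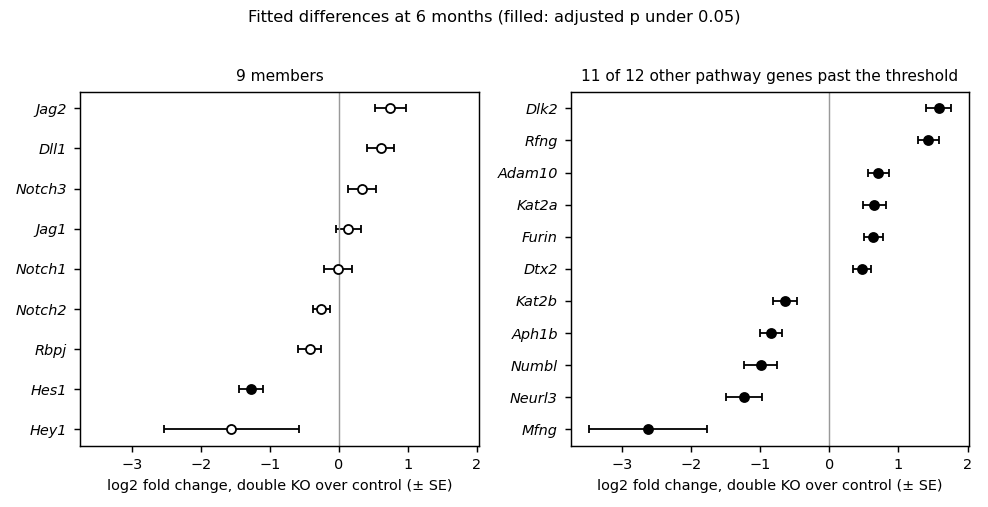
Log2 fold change of the double knockout over the control at 6 months (horizontal axis) with its standard error as bars, for the 9 members (left) and for 11 of the 12 other pathway genes past the threshold (right), with filled points for an adjusted p under 0.05. Hes1 at -1.28 is the single filled point among the members, and the other genes plotted run from Mfng at -2.63 to Dlk2 at 1.58.

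The largest rises among these genes were in Dlk2 and Rfng. Dlk2, which encodes a Delta-like membrane protein without the domain that activates Notch, was at 9.72, 9.28 and 8.85 CPM in the controls against 32.9, 27.95 and 27.9 CPM in the double knockout (1.58 ± 0.18 SE on the log2 scale, edgeR adjusted p 0.00117). Rfng, a Fringe glycosyltransferase that adds sugar to Notch receptors, was at 19.3, 21.4 and 22.1 CPM and then 66.0, 56.7 and 56.5 CPM (1.43 ± 0.15 SE on the log2 scale, edgeR adjusted p 0.000862). Dlk2 and Rfng showed little spread within either group and passed the threshold in all 16 alternatives. Adam10, the protease of the first cut of an activated receptor, rose from 105 ± 16.0 to 179.9 ± 16.3 CPM (SD, 3 libraries each), a log2 fold change of 0.71 with an edgeR adjusted p of 0.0163. Adam10 was no longer past the threshold without control replicate 2 (0.59), without double knockout replicate 2 (0.74) or 3 (0.67), or with control replicate 3 as the lone control (0.595).

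The largest falls were in Mfng, Neurl3, Numbl and Aph1b. Mfng, another Fringe gene, had 39, 12 and 14 counts in the controls and 4, 1 and 3 counts in the double knockout (-2.63 ± 0.86 SE on the log2 scale, edgeR adjusted p 0.0294). The background came to 9.06 of the 12 counts of Mfng in control replicate 2, with the background subtracted Mfng was not tested, and it lost the threshold when any library but control replicate 3 was left out (-2.89 to -1.90). Neurl3, of the family of Neuralized ubiquitin ligases, fell from 20.6 ± 2.23 to 9.14 ± 2.76 CPM (log2 fold change -1.24, edgeR adjusted p 0.0138). It was not past the threshold without control replicate 2 (-1.15) or without control replicates 1 and 2 together (-1.07).

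Numbl, a homolog of the Notch inhibitor Numb, fell from 16.6 ± 0.899 to 8.65 ± 2.23 CPM (log2 fold change -0.997, edgeR adjusted p 0.0244), and lost the threshold without control replicate 1 or 2 or double knockout replicate 1 or 2, at -1.01 to -0.81. Aph1b, a subunit of the gamma-secretase that makes the final cut of the receptor, fell from 37.9 ± 2.48 to 22.1 ± 1.58 CPM (log2 fold change -0.85, edgeR adjusted p 0.00951), and lost it without double knockout replicate 1 (-0.81) or 3 (-0.76), and with all libraries in one fit (-0.81). Further called genes, named here after their values were seen, were Kat2a, Furin and Dtx2, with log2 fold changes of 0.65, 0.63 and 0.47, and Kat2b, with -0.64. Kat2a and Kat2b encode histone acetyltransferases, Furin a protease that matures Notch receptors and Dtx2 a Deltex ubiquitin ligase. Kat2a, Dtx2 and Kat2b lost the threshold without any 1 double knockout library, Kat2a and Dtx2 also without control replicate 1 or 2, Kat2b without control replicate 2 or 3, and Furin without control replicate 2 or double knockout replicate 1.

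By role, the other receptors and ligands had 1 gene higher of 2 tested (Dlk2), the Fringe and other receptor-modifying enzymes had 1 gene higher and 1 lower of 5 tested, the ubiquitin ligases and endocytic regulators 1 higher and 2 lower of 14, the receptor proteases 2 higher and 1 lower of 10, and the nuclear cofactors 2 higher and 1 lower of 19. Lfng, the remaining Fringe gene, was at 13.5 ± 3.05 and 13.2 ± 3.20 CPM (SD, 3 libraries each), a log2 fold change of -0.10 with an edgeR adjusted p of 0.818. Of the 8 other Hes and Hey genes and feedback targets, 2 had enough counts to be tested, and neither passed the threshold. The ligand Dll4, known from endothelium, had 15, 27 and 3 control counts against 7, 5 and 8 in the double knockout, too few to be tested. The receptor Notch4, also known from endothelium, had 62, 91 and 8 control counts against 27, 10 and 14 in the double knockout. For Notch4 the fitted log2 fold change came to -1.96 (0.85 SE), with 0.128 as the edgeR adjusted p, and with control replicate 3 as the lone control it was 0.91. It was past the threshold as lower without control replicate 3 (-2.40, edgeR adjusted p 0.00553), in DESeq2 and without a filter. Endothelial markers summed to 7.55 to 34.5 CPM in the controls and 7.91 to 11.5 CPM in the double knockout.

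The profile of Hes1 across the 8 libraries was most like those of B130021K23Rik, Homer1 and Tpm1. Likeness was the root mean square difference of log2(CPM + 1) values, each gene centred on its mean, which was 0.186, 0.188 and 0.209 for these genes, against a median of 0.721 over 11365 genes with a mean of at least 5 CPM. Tpm1, a tropomyosin gene, was at 328, 303 and 371 CPM in the controls against 121, 108 and 121 CPM in the double knockout, and Homer1, a scaffold protein gene, at 128, 103 and 104 against 52.3, 46.02 and 59.2 CPM.

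Marker lists of other cell types and states are given beside Hes1, to be read against the 6.26% of all genes called higher and the 8.59% called lower. Proliferation markers summed to 85.04 to 199 CPM in the controls and 359 to 487 CPM in the double knockout, with 7 of 7 higher past the threshold. Sebaceous gland markers summed to 1129 to 1285 and 548 to 614 CPM, with 1 of 5 tested lower. Dermal fibroblast markers summed to 53.8 to 159 and 12.2 to 23.6 CPM, with 3 of 7 lower, and markers of the hair matrix, shaft and inner root sheath to 41.1 to 54.0 and 26.5 to 38.2 CPM, with 1 of 7 lower. Granular and cornified markers summed to 2421 to 4045 and 1103 to 2227 CPM, with 1 of 6 lower, whereas the suprabasal sums overlapped as given above, with 1 of 7 higher and 1 lower. Hair follicle stem cell markers summed to 280.3 to 429 and 162 to 376 CPM, sums that overlapped, with 1 of 7 lower. In the lists with 1 called gene, 4 to 6 of the tested genes had no call. The part of these cell types in the Hes1 values was not tested. The other lists (T cells, myeloid cells with Langerhans cells, melanocytes, Merkel cells) had no gene past the threshold. Merkel cell markers summed to 1.63 to 9.72 CPM in the controls and 1.43 to 2.99 CPM in the double knockout, sums that overlapped.

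The 2 libraries labelled K14CreTfap2bfl/fl at 3 weeks have no analysed control of their own age. They held 48.03 and 58.9 CPM of Hes1. Further, they held 162 and 147 CPM of Jag2, 267 and 246 CPM of Notch3 and 30.5 and 33.1 CPM of Dll1. Both Hes1 values lay below every control at 6 months and both values of Jag2 and Dll1 above every one, while Notch3 in replicate 2 was just below control replicate 3. Their summed basal markers, 8904 and 10313 CPM, lay within the range of the 6-month controls. Their proliferation markers, 271.8 and 272.1 CPM, lay above that range, and those of the hair matrix, shaft and inner root sheath (15.03 and 17.02 CPM) and of hair follicle stem cells (197 and 177 CPM) below it. Sebaceous gland markers summed to 14100.1 and 926 CPM and dermal fibroblast markers to 2611 and 17.4 CPM, on either side of the controls. The part of these markers in the values of the 2 libraries was not tested. Genotype and age differ together between these libraries and the controls and cannot be told apart.

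**Figure D4:**
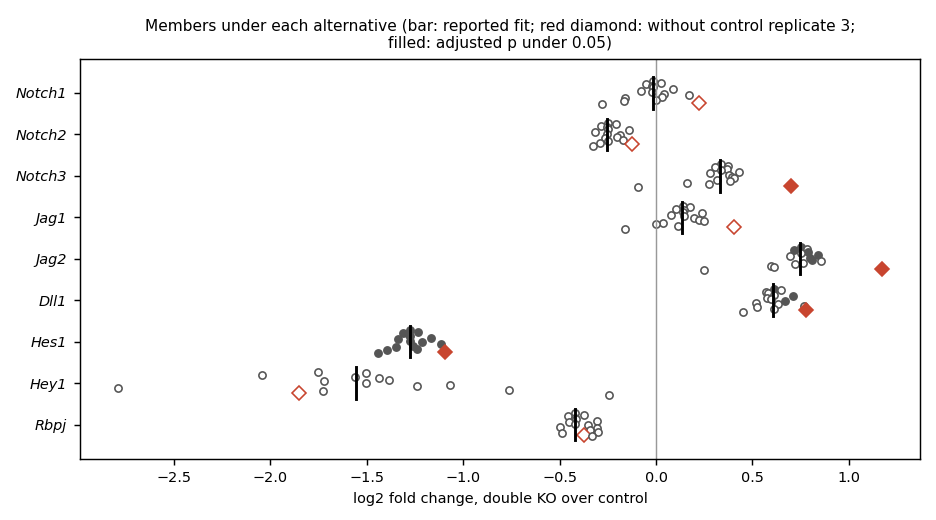
Log2 fold change of each of the 9 genes (horizontal axis) under the reported fit (vertical bar) and 16 alternatives, 15 for Hey1 (points, filled where the adjusted p is under 0.05), with the fit without control replicate 3 as a red diamond. All points of Hes1 are filled and lie between -1.44 and -1.10, while Jag2, Dll1 and Notch3 have their largest value without control replicate 3, at 1.17, 0.78 and 0.70.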

How the data were processed

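Per the file headers, the authors deposited whole-number counts per Ensembl gene with exon coordinates and exonic length, 1 library per file. The submitters' processing notes name Trimmomatic 0.36, STAR 2.5.2b, featureCounts and Subread 1.5.2 and the builds GRCh38 and GRCm38, without roles. How strand and multiply mapped reads were treated is not given in the sources used here. Of 49315 identifiers 48970 were in GENCODE M21 (GRCm38), which gave the symbols. Samples were grouped and numbered by their titles.

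Counts of the 6 libraries at 6 months were fitted in edgeR 4.0.16 (R 4.3.3) with filterByExpr, TMM factors, a prior count of 2, robust glmQLFit and glmQLFTest; p-values were adjusted over all tested genes by the Benjamini-Hochberg method. CPM are counts per 1000000 library counts, without TMM factors. Alternatives included DESeq2 1.42.0 and limma-voom (limma 3.58.1). The members and gene lists were chosen with earlier results of these data known. Named from the other pathway genes were the 4 largest called changes in each direction whose higher group averaged 1 CPM or more, plus Notch4, Dll4 and Lfng (1 of these called genes enters the counts but is not reported here); for each called member the 3 most alike genes were named. On simulated data for the comparison at 6 months, 136 of 194 genes changed 4-fold and 43 of 192 changed 2-fold were called, none in the wrong direction. With 17290 and 17293 genes tested there, 11 and 8 unchanged genes were called. No other tested genes were changed in the simulation, whereas 14.9% of all genes were called in the data. With fewer changed genes the adjusted p is a stricter cut, so the simulated shares do not carry over to the data. Of 94 marker genes in 14 lists 93 were matched.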

Additional observations from a re-analysis of the deposited data

How the results depend on the processing

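Of the 13 called pathway genes, Hes1, Dlk2 and Rfng stayed past the threshold in all 16 alternatives. Notch1, Notch2, Jag1 and Rbpj passed in none of 16, nor Hey1 in the 15 that tested it. Over all genes, 2637 were called (1111 higher, 1526 lower), against 4809 without a filter on low counts, 1729 with the replicate block, 1548 with all libraries with counts in one fit, 668 to 7544 when 1 library was left out (lowest without double knockout replicate 1, highest without control replicate 3), and 437 without control replicates 1 and 2 together. That last alternative was chosen after seeing the data, and it assumes that the lone control varies like the double knockout libraries. With total counts the split was 1376 higher and 1327 lower.

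Of the 9 members, 1 was called, against 3 with total counts, 3 without a filter, 3 in DESeq2, 2 in limma-voom, 2 with at least 10 counts in every library, 2 with the replicate block, and 1 to 4 with 1 library left out. The added genes were Jag2, Dll1 and Notch3, all higher. Of the other pathway genes 12 were called, against 7 with all libraries in one fit, 2 without control replicates 1 and 2, and 3 to 24 with 1 library left out (lowest without control replicate 2, highest without control replicate 3). Notch1 changed sign with total counts (0.044), without a filter (0.086) and with all libraries in one fit (0.024), and ranged from -0.17 to 0.22 with 1 library left out. Lfng changed sign without a filter (0.023) and without control replicates 1 and 2 (0.26), and ranged from -0.25 to 0.11 with 1 library left out. Without control replicates 1 and 2, Notch3 (-0.094), Jag1 (-0.16) and Notch4 (0.91) also changed sign. The cause was not tested. Over the genes tested in both fits, omitting the filter shifted the log2 fold change by a median of 0.11, and the values without it include that shift.

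Deviations of same-numbered libraries from their group means correlated across genes at 0.0066, -0.17 and -0.068 for numbers 1 to 3. Those of differently numbered libraries ran from -0.097 to 0.17. With 3 libraries per group these values cannot show whether the numbers pair the libraries. With the replicate block Hes1 was at -1.28 and Jag2 at 0.80 (edgeR adjusted p 0.0288). With the block 9 other pathway genes were called. Hey1 and Mfng rest on few counts, at most 52 and 39 in a library at 6 months.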

Other observations

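The 2 libraries labelled K14CreTfap2bfl/fl at 3 weeks differed from each other in the Notch genes known from vessels. Replicate 1 had 374 counts of Notch4, 245 of Dll4 and 205 of Mfng, and replicate 2 had 15, 0 and 3. The count of 0 for Dll4 allows up to 3 counts, or 0.240 CPM, counting error only, against 18.9 CPM in replicate 1. The endothelial markers summed to 472 CPM in replicate 1 and 5.99 CPM in replicate 2, the markers of pericytes and smooth muscle to 324 and 21.7 CPM, and the dermal fibroblast markers to 2611 and 17.4 CPM. Hey1 was at 3.24 and 0.3996 CPM in the same libraries. The receptors and ligands of keratinocytes did not follow that split: Notch1 was at 552 and 516 CPM, Notch2 at 589.7 and 539 CPM, Notch3 at 267 and 246 CPM, Jag1 at 185 and 218 CPM and Jag2 at 162 and 147 CPM. Both libraries carry the same label, so this is a difference between libraries and not between groups.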
